A study of Mus musculus with 14 samples.

Results

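Chromatin of basal epidermal cells from newborn mice held 283 Ring1b regions that carried H2AK119ub without H3K27me3, out of 2473 Ring1b regions found in both replicates on chromosomes 1 to 19 (11.4%, 95% Wilson interval 10.2 to 12.8). Overlapping Ring1b peaks of replicates 1 and 2 (1 bp or more) were joined, and a region was kept when both replicates contributed. The members were chosen by the authors' peak calls: a region entered the set when it met an H2AK119ub peak of either replicate by 1 bp or more and no H3K27me3 peak of either replicate. The set is called the Ring1b/H2AK119ub regions here. It is set against 1295 Ring1b regions that met both marks and 715 that met neither. A further 180 met H3K27me3 without H2AK119ub. Because peaks chose the regions, their number and the presence or absence of each mark are descriptions and carry no test.

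The samples were basal cells of newborn back skin (postnatal day 0), which were positive for Sca1, high for the Krt14-RFP reporter and negative for Krt10-H2B-GFP. All groups shared the genotype Krt14-RFP; Krt10-H2B-GFP, in which a red reporter marks the basal layer and a green nuclear reporter marks the layers above it. Chromatin immunoprecipitation and sequencing (ChIP-seq) used 6000000 cells per Ring1b sample and 400000 per histone mark sample. Ring1b, H2AK119ub and H3K27me3 had 2 replicates each, and the labels do not say that these came from separate animals, so their spread may be technical. The other 8 samples of the series were not analysed here. The label of the cells could not be checked by their markers, because peak lists hold no expression. Krt5, Krt14, Trp63, Itga6 and Col17a1, the 5 basal markers, had 0 promoters among all Ring1b regions of both replicates. The count was 1 of 5 suprabasal, 2 of 3 Merkel, 0 of 3 melanocyte, 1 of 2 fibroblast and 0 of 2 immune markers. Of autosomal protein-coding genes 9.45% were at any Ring1b region, so 0 of 5 says little and does not bear on the label.

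Ring1b is the catalytic subunit of Polycomb repressive complex 1 (PRC1), which attaches ubiquitin to histone H2A and thereby makes H2AK119ub. H3K27me3 is written by the separate complex PRC2 and is read by the Cbx subunits of canonical PRC1. Variant forms of PRC1 carry other subunits, can bind unmethylated CpG islands through Kdm2b and do not need H3K27me3 to be recruited. In skin, PRC1 and PRC2 are known for holding genes of other lineages silent in epidermal cells.

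Most regions had the authors' promoter class, at a share near that of all Ring1b regions, and the gene starts inside them were rich in CpG. Of the 283, 226 had the promoter class in both replicates (79.9%, 95% interval 74.8 to 84.1). The share was 75.1% for regions with both marks, 87.8% for regions with neither mark and 78.2% for all Ring1b regions. A RefSeq start lay inside at least 143 of the 283 (50.5%), against 55.4%, 63.9% and 56.4% in the same order. The table of starts did not cover every autosome. It covered 277 of the 283 regions, and 1244, 691 and 2383 in the same order. Regions outside it were scored as lacking a start, so each of these shares is a lower bound. The sequences shown here are the 250 bases before the RefSeq start of 6 genes whose Ring1b/H2AK119ub region contains that start, chosen to span signalling ligands, receptors and a PRC1 subunit and a range of CpG content. They come from RefSeq on GRCm38.p6, run 5′ to 3′ on the strand of the gene, and have each CpG in capitals. Wnt5b is at chr6:119544348-119544597 on the minus strand, Notch1 at chr2:26503823-26504072 (minus), Jag1 at chr2:137116521-137116770 (minus), Ptch1 at chr13:63565736-63565985 (minus), Bmp4 at chr14:46390670-46390919 (minus) and Bmi1 at chr2:18676768-18677017 (plus).
Wnt5b: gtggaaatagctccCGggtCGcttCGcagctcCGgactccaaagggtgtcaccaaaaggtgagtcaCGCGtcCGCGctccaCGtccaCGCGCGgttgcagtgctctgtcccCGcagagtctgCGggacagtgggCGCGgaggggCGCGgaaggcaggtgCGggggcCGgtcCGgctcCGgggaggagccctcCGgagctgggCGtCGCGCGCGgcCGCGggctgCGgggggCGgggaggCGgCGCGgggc
Notch1: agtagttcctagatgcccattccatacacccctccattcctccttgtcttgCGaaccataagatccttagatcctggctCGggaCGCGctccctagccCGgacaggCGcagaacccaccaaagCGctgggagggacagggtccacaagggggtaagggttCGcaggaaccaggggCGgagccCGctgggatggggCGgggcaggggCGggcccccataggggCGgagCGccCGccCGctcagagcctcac
Jag1: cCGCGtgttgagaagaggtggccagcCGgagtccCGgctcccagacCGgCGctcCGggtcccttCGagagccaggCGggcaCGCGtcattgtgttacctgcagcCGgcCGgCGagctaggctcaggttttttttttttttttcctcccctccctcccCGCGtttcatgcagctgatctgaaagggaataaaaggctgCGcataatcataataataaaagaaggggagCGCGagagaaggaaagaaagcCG
Ptch1: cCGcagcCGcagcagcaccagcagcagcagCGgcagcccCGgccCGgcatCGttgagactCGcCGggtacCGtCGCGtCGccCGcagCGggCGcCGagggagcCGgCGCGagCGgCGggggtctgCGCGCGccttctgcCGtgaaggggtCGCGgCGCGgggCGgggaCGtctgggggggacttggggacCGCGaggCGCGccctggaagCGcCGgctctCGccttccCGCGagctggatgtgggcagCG
Bmp4: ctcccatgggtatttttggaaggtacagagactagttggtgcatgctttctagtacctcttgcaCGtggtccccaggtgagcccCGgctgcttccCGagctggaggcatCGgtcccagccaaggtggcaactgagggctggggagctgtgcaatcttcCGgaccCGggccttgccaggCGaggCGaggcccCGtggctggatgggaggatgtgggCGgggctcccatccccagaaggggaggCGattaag
Bmi1: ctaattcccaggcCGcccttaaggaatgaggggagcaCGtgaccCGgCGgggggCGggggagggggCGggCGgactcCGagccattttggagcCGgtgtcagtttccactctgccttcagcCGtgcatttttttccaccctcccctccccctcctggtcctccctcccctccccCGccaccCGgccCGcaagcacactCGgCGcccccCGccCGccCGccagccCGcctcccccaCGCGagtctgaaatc

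Ptch1 held 41 CpG dinucleotides in these 250 bases, Wnt5b 35, Bmi1 21, Jag1 20, Notch1 16 and Bmp4 11. Over 300 bases around the start (250 before to 50 after), 183 starts of 168 genes inside Ring1b/H2AK119ub regions had a median of 26 CpG (interquartile range 19.5 to 34). The median was 20 at 1100 starts in regions with both marks and 28 at 620 starts in regions with neither mark. It was 23 at 1993 starts in all Ring1b regions and 7 at all 31396 starts in the table. The ratio of observed to expected CpG exceeded 0.6 at 156 of the 183 starts (85.2%). The share was 69.0% in regions with both marks, 89.4% in regions with neither mark, 76.7% in all Ring1b regions and 36.4% of all starts. By this measure the Ring1b/H2AK119ub starts lay between the 2 other classes and nearer to the regions with neither mark. Starts of neighbouring isoforms share bases, and the table held no start on chromosome 18.

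**Figure D1:**
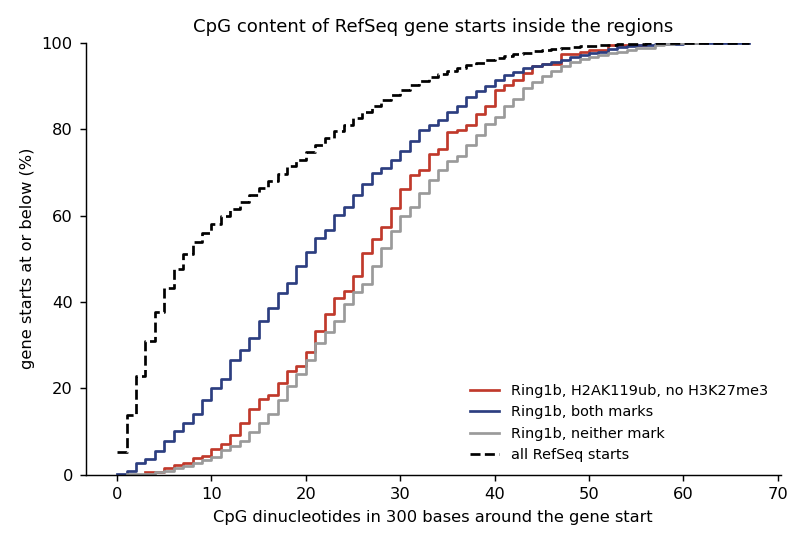
Cumulative share of RefSeq gene starts (%) against the number of CpG dinucleotides in 300 bases, for starts inside each class of Ring1b region and for all starts (dashed). The red line of the Ring1b/H2AK119ub regions, with a median of 26, runs close to that of the regions with neither mark (28) and right of that of the regions with both marks (20).

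Letters of 3 motifs were counted on both strands of the same 300 bases. CGCG, which by its letters contains CpG, was present at 160 of 183 Ring1b/H2AK119ub starts (87.4%). It was present at 73.1% of starts with both marks, 85.6% with neither mark, 78.1% in all Ring1b regions and 38.5% of all starts. CACGTG, the core E-box of Myc and circadian factors, was present at 15 (8.20%), against 6.64% of starts with both marks, 15.3% with neither mark and 7.14% of all starts. TGANTCA, the letters of the AP-1 element, was present at 3 (1.64%), against 3.82%, 4.35% and 7.84%. These are matches of letters in this window and not bound sites.

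Ring1b signal was moderate in these regions. Signal was taken as the ratio of the authors' ChIP read count to their input read count inside the peaks of a region. Both counts grow with length, so the ratio is not a sum over length. The classes also differed in length, with medians of 1916 bp here, 3479 bp with both marks and 1368 bp with neither. Whether their signal differs apart from length was not tested. The median ratio was 2.51 in replicate 1 and 2.35 in replicate 2 (mean 2.43 ± 0.112, SD, n = 2). Regions with both marks had 2.94 and 2.64, and regions with neither mark had 2.40 and 2.17. On the log2 scale the Ring1b/H2AK119ub median lay below that of regions with both marks by 0.23 and 0.17 in the 2 replicates (log2 difference -0.20 ± 0.044, SD, n = 2). It lay above that of regions with neither mark by 0.06 and 0.12 (0.09 ± 0.038). Both differences had the same sign in each replicate, but 2 replicates allow no exact test under 0.05 and regions are not replicates, so none was made.

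The second difference rested on the lists used. It was 0.18 without H2AK119ub replicate 2 and 0.14 without Ring1b replicate 2, and it turned to -0.04 when every list was limited to deposited p-values up to 0.001. The first difference kept its sign in all 16 alternatives, though in the scaled one the list totals cancel and only a pseudocount could move it. It was -0.31 among regions with at least 20 input reads in each Ring1b replicate, and -0.34 when peak height replaced the ratio. Height was the maximum over all peaks of a region, and regions with both marks were longer (median 3479 against 1916 bp). Whether height differs apart from length was not tested. The first difference was -0.14 with deposited p-values up to 0.05. It was -0.12 when the Ring1b/H2AK119ub regions had to carry H2AK119ub in both replicates and -0.13 when H2AK119ub had to cover 50% of them, with the regions of both marks left as they were. Across the 283 regions the log2 Ring1b ratio of the replicates correlated with Spearman's rho of 0.632 (Pearson's r 0.623), against 0.843 across the 1295 regions with both marks. These correlations describe regions that share libraries, and the input reads behind them were fewer in the Ring1b/H2AK119ub regions, with medians of 38 and 28 against 74 and 56.

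**Figure D2:**
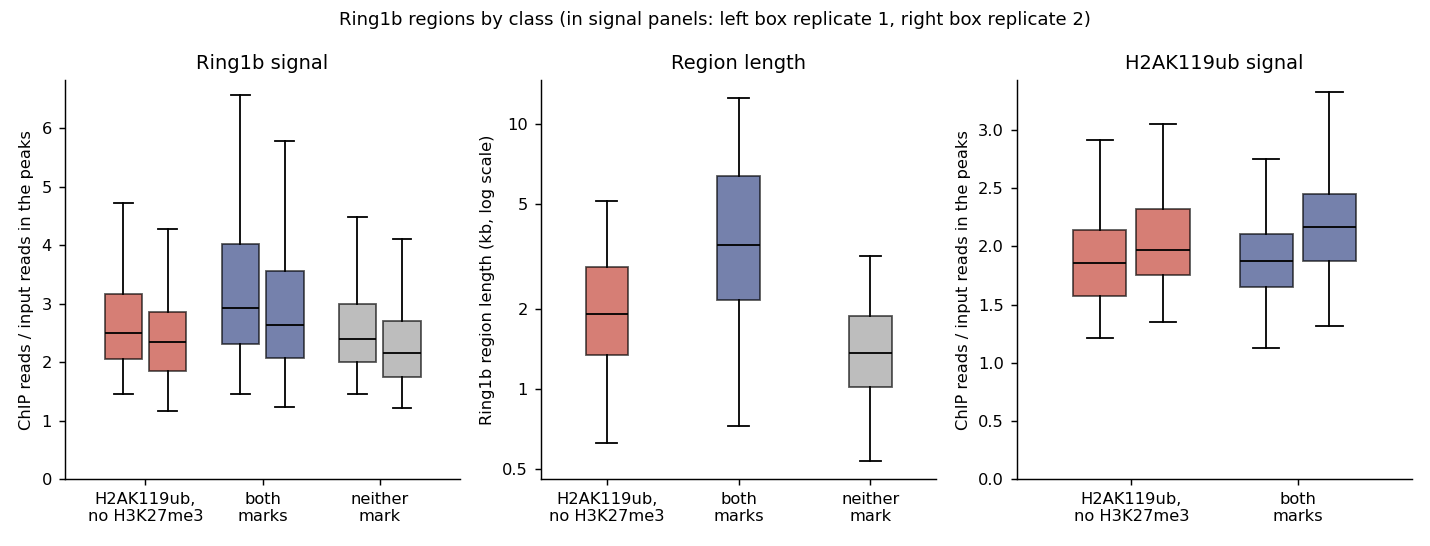
Ratio of ChIP to input reads for Ring1b (left) and H2AK119ub (right), and length of the Ring1b region in kb on a log scale (middle), by class of region. Boxes give the median and quartiles, whiskers reach the farthest region within 1.5 box lengths, and points beyond are not drawn. Ring1b medians of the Ring1b/H2AK119ub regions (2.51 and 2.35) lie between those of the other classes in both replicates.

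The regions were short. Their median length was 1916 bp (interquartile range 1338.5 to 2892, range 624 to 12323), against 3479 bp for regions with both marks and 1368 bp for regions with neither. Length is not independent of the rule, because a longer region has more chance to meet a peak of either mark. With replicate 2 as the only Ring1b list the median was 1257 bp. The longest 5 regions lay at Crnde and Irx5 (12323 bp, chr8:92354581-92366903), Zfp503 (11412 bp), A930004D18Rik (11035 bp), Meis2 (10836 bp) and Sox21 (9908 bp). Irx5, Meis2 and Sox21 encode transcription factors of embryonic patterning, Zfp503 a zinc finger repressor, and Crnde and A930004D18Rik are noncoding. At Irx5 the Ring1b ratio was 2.35 and 1.76, and at Sox21 2.77 and 2.50, so these long regions were not among the strongest.

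H2AK119ub was called less evenly here than in regions with both marks. It was found in both replicates at 140 of the 283 regions (49.5%, 95% interval 43.7 to 55.3), in replicate 2 alone at 42.0% and in replicate 1 alone at 24 (8.48%). Among regions with both marks, 79.5% had H2AK119ub in both replicates. Those regions were longer (median 3479 against 1916 bp), and a longer region has more chance to meet a peak of each replicate. Whether the shares differ apart from length was not tested. Of all Ring1b regions, 63.8% met an H2AK119ub peak of either replicate. The replicate 2 list was the longer of the pair, at 23.3 Mb against 10.5 Mb. Leaving out H2AK119ub replicate 2 left 164 regions, and leaving out Ring1b replicate 2 gave 450. Leaving out H3K27me3 replicate 1, whose list covered 41.8 Mb against 20.5 Mb for replicate 2, gave 402.

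The 140 regions with H2AK119ub in both replicates had median Ring1b ratios of 2.66 and 2.47. Those with replicate 2 alone had 2.36 and 2.19, and the 24 with replicate 1 alone had 2.42 and 2.54. Within the H2AK119ub peaks, the median ratio of ChIP to input reads was 1.86 in replicate 1 (164 regions) and 1.97 in replicate 2 (259 regions). Regions with both marks had 1.88 and 2.17. The log2 difference between the medians was -0.01 in replicate 1 and -0.13 in replicate 2 (-0.07 ± 0.086, SD, n = 2), which is within the spread between replicates, and it was 0.14 with peaks limited to deposited p-values up to 0.001. What differed more was the summed length of all H2AK119ub peaks that met a region. Its median was 1569.5 and 2734 bp for the Ring1b/H2AK119ub regions, against 3440 and 5964 bp for regions with both marks. This sum is not the width of single peaks. A longer Ring1b region can meet more peaks, and regions with both marks were longer (median 3479 against 1916 bp). The H2AK119ub peaks covered a median of 47.2% and 62.2% of the Ring1b region, against 69.0% and 99.3%. Across the 140 regions the mean log2 ratios of Ring1b and H2AK119ub correlated with a rho of 0.272, which is weak and is given as a description.

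H3K27me3 peaks lay somewhat nearer to these regions than to regions with neither mark. Both classes were chosen to meet no H3K27me3 peak, so some distance was set by that choice. For the Ring1b/H2AK119ub regions the nearest H3K27me3 peak of either replicate lay at a median distance of 124 kb (interquartile range 43.3 to 287), against 148 kb for regions with neither mark. It lay beyond 100 kb for 158 regions (55.8%), against 63.1% of regions with neither mark. It lay within 5 kb for 21 regions (7.42%), against 2.94% of regions with neither mark. The shortest deposited H3K27me3 peaks were 2003 bp in replicate 1 and 2006 bp in replicate 2, while those of the other antibodies reached 500 bp, so a shorter stretch of H3K27me3 is not listed and its absence from these regions was not shown. Dropping the regions within 5 kb left 262.

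**Figure D3:**
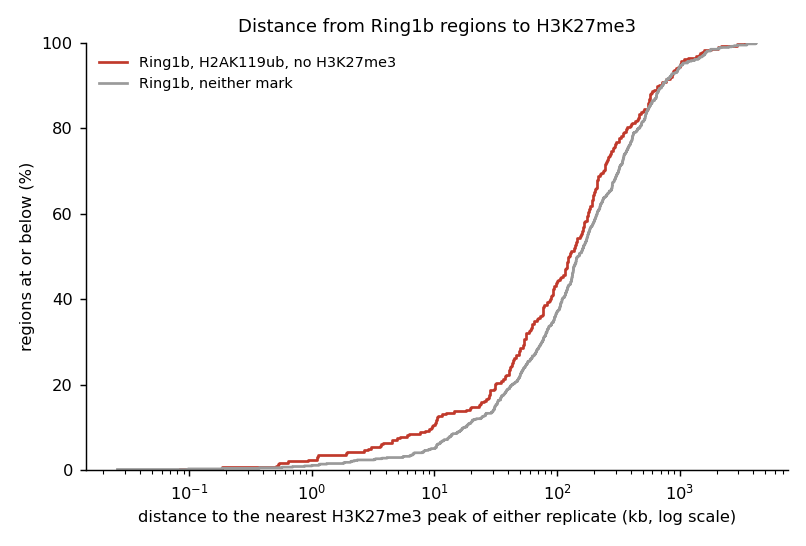
Cumulative share of regions (%) against the distance to the nearest H3K27me3 peak of either replicate, in kb on a log axis. The red line of the Ring1b/H2AK119ub regions lies above the grey line of the regions with neither mark over most of the axis, with medians of 124 and 148 kb.

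Some regions stood close to the boundary of the rule. Inside it, the H2AK119ub overlap was shortest at Wnt10b (22 bp), Mtss1l (96 bp) and Bok (99 bp). The nearest H3K27me3 peak lay 84 bp from an intergenic region at chr8:32007609-32010064, 185 bp from Synm and 508 bp from Prrt4. Just outside, a second region at Prrt4 met H3K27me3 by 10 bp, Soga1 by 17 bp and Impdh1 by 20 bp. Wdr81, Znrf4 and Nab2 lacked H2AK119ub by 19, 46 and 52 bp. Ring1b ratios ran from 1.93 to 3.54 at the 6 regions inside the boundary and from 1.93 to 3.17 at the 6 outside it.

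The strongest Ring1b signal lay at genes of varied function. The 15 regions named by mean log2 Ring1b ratio among those with at least 20 input reads in each replicate were led by Zfp36l2, an RNA-binding protein that speeds the decay of messages. At chr17:84185151-84188915 it had 413 ChIP over 73 input reads in replicate 1 (ratio 5.66) and 294 over 72 in replicate 2 (4.08), a mean of 4.87 ± 1.11 (SD, n = 2). Gas1, a coreceptor of Hedgehog ligands, followed at 4.64 and 4.38 (4.51 ± 0.186, chr13:60175387-60178460), with its nearest H3K27me3 peak 1363 kb away. Casz1, a zinc finger transcription factor, had 4.73 and 3.96 in its gene body, and Zfp703, a transcriptional corepressor, had 4.25 and 3.88. Sox9, a factor of hair follicle stem cells, had 460 over 109 reads (4.22) and 344 over 90 (3.82). All 5 of these carried H2AK119ub in both replicates, with ratios of 2.03 and 2.70 at Zfp36l2, 2.15 and 2.96 at Gas1, 2.04 and 3.05 at Casz1, 3.28 and 3.65 at Zfp703 and 1.49 and 1.71 at Sox9.

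The next in this order were Bmi1, a subunit of canonical PRC1 (Ring1b 4.27 and 3.36), Socs2, a suppressor of cytokine signalling (4.35 and 3.20), Cdc42bpg, Irf2bpl and Celsr2, a cadherin of planar polarity. Foxred2, Jag2, Mn1, Prr7 and Antxr2 closed the 15. Socs2 lay 532 bp from an H3K27me3 peak and Bmi1 5.23 kb from one. By mean log2 H2AK119ub ratio, with peaks of both replicates and at least 20 input reads in each, the leading 8 were Mn1, a transcriptional coregulator (2.37 and 3.51), Socs2 (2.89 and 2.88), Mex3b, an RNA-binding ubiquitin ligase (2.30 and 3.23), Foxo6, a forkhead factor (2.45 and 2.81), Sorcs2, a sorting receptor (2.33 and 2.81), Tbc1d24 (2.73 and 2.39), Gas1 and Itpripl2 (2.82 and 2.23). Mn1, Socs2 and Gas1 were in both lists.

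Promoter rows of the Ring1b/H2AK119ub regions named 243 genes, of which 221 were protein coding. This is 1.07% of 20661 autosomal protein-coding genes and 11.3% of the 1953 (9.45%) at any Ring1b region. The gene count was 133 without H2AK119ub replicate 2, 393 without Ring1b replicate 2 and 112 when H2AK119ub was required in both replicates. Of 20 gene lists, the WNT ligands had the highest share at these regions and the Notch genes came next. The count was 0 for Hox genes (30 at any Ring1b region), clock genes (9), Merkel cell genes (8) and cell cycle inhibitors (4). It was also 0 for markers of fibroblasts, endothelium and immune cells (2), of keratinocytes (1) and of melanocytes (0). So few Ring1b genes could hardly give another count there. No list was tested, since regions and lists were chosen with results of these data known, and the counts are descriptions. Of Ring1b genes at large, 11.3% lay at these regions. The share of a list's Ring1b genes was 60.0% for WNT ligands (of 10), 45.5% for Notch genes (of 11) and 33.3% for Hedgehog genes (of 6). It was also 33.3% for Polycomb subunits (of 9) and cyclins and their kinases (of 3), and 25.0% for immediate early genes (of 16). It was 21.2% for epidermal and hair follicle factors (of 33), 21.1% for FGF and EGF genes (of 19) and 18.2% for other WNT genes (of 22). It was near the background for nuclear receptors (13.3%), BMP and TGF-beta genes (10.5%) and semaphorins and ephrins (10.0%), and it was 3.85% for developmental regulators of other lineages.

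**Figure D4:**
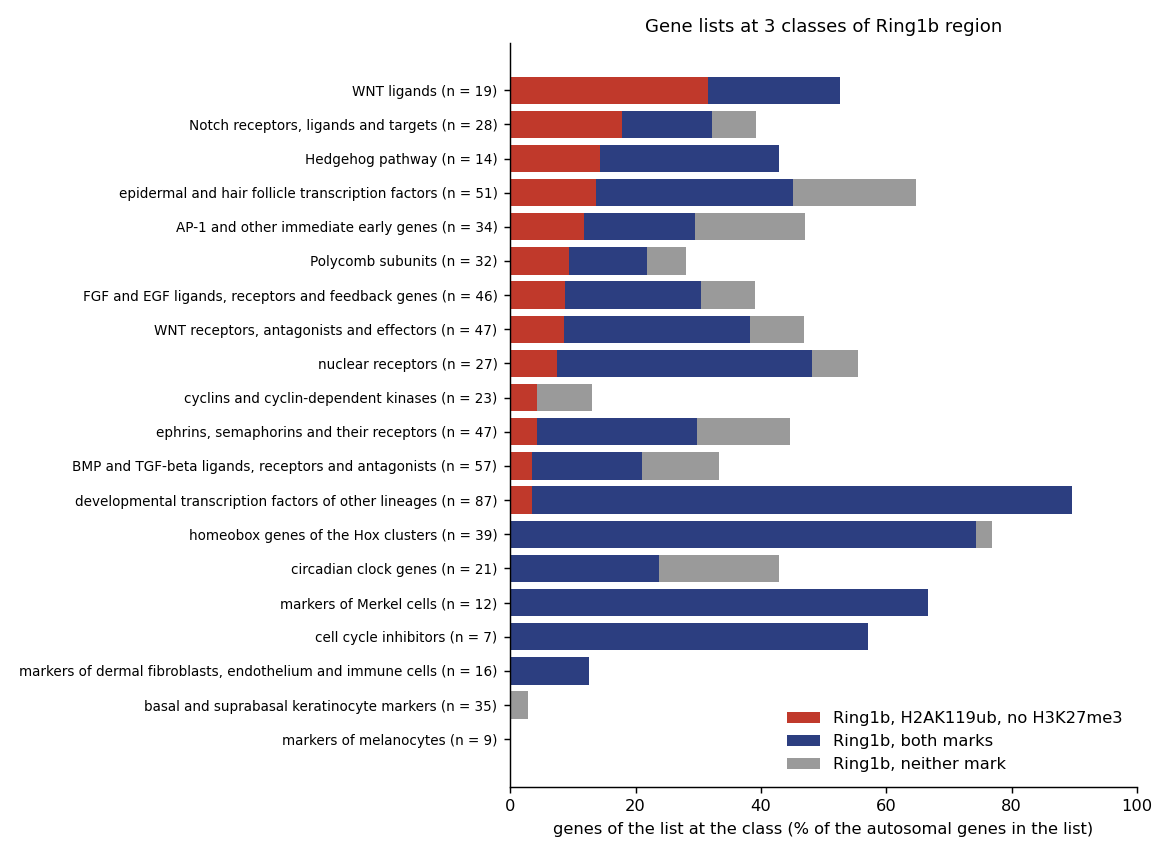
Share of the autosomal genes in each of 20 lists (%) whose promoter was named at a Ring1b/H2AK119ub region (red), at a Ring1b region with both marks (blue) or at one with neither mark (grey); a gene with regions in 2 classes is drawn in both. WNT ligands head the order with 31.6% in red, and Hox genes have 29 of 39 in blue and 0 in red.

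WNT ligands are secreted proteins that act through Frizzled receptors and, in skin, drive basal cell renewal and hair placode formation. Of 19 autosomal WNT ligands, 6 were named at Ring1b/H2AK119ub regions (31.6%, 95% interval 15.4 to 54.0), 4 at regions with both marks and 0 at regions with neither mark. Wnt5b, a ligand best known for signalling without beta-catenin, had Ring1b ratios of 3.42 (89 over 26 reads) and 2.86 (40 over 14), and an H2AK119ub ratio of 2.48 in replicate 2 with no peak in replicate 1. Wnt7a had 1.84 and 1.74 for Ring1b and 1.65 and 1.73 for H2AK119ub. Wnt9b, a ligand of kidney and palate development, had 3.29 and 1.61 for Ring1b over 17 and 18 input reads, so its replicates lay far apart.

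Wnt7b, a ligand made by epidermis, had 2 regions, at chr15:85576792-85579450 (Ring1b 2.27 and 1.78) and chr15:85580140-85582360 (3.26 and 2.20). Wnt10a and Wnt10b, ligands of hair placodes, had 2.22 and 1.97, and 2.38 and 2.28, each with H2AK119ub in replicate 2 alone. Wnt10a and Wnt6 lie next to each other, and 3 Ring1b/H2AK119ub regions fell within chr1:74780719-74808376. Wnt6 was reached in its gene body (Ring1b 2.35 and 2.42), as was Wnt3 (3.22 and 2.40). The WNT count was 3 without H2AK119ub replicate 2, 3 with H2AK119ub required in both replicates, 3 at a deposited p of at most 0.05 and 0 at 0.001.

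Of 47 other genes of the WNT pathway, 4 were named at Ring1b/H2AK119ub regions (8.51%), against 14 at regions with both marks and 4 at regions with neither. All 4 encode Frizzled receptors. Fzd7 had Ring1b ratios of 3.04 and 2.60, Fzd2 2.68 and 2.19, Fzd5 2.51 and 2.32 and Fzd10 1.49 and 1.86. H2AK119ub was called in both replicates at Fzd5 (1.60 and 2.32), in replicate 1 alone at Fzd7 (1.21) and in replicate 2 alone at Fzd2 (1.96) and Fzd10 (1.81).

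Notch signalling passes between neighbouring cells and moves basal keratinocytes toward the spinous layer. Of 28 Notch genes, 5 were named at Ring1b/H2AK119ub regions (17.9%, 95% interval 7.88 to 35.6), against 4 at regions with both marks and 2 at regions with neither. They comprised the receptor Notch1, the ligands Jag1 and Jag2 and Hes1, a target of Notch that represses transcription, and its relative Hes6. Notch1 had 159 over 76 reads (2.09) and 46 over 23 (2.00) for Ring1b at chr2:26501328-26504400, and 2.46 for H2AK119ub in replicate 2 over 13 input reads. Jag1 had 1.87 and 2.50, with H2AK119ub of 2.13 in replicate 2 alone. The starts of both genes are among the sequences shown. Jag2 was higher, at 3.16 and 3.76, with H2AK119ub of 1.32 and 2.12. Hes1 had 2.15 and 2.05 over a region of 7673 bp, with H2AK119ub of 2.27 and 1.85. Hes6 had 3.48 and 5.38, the second over 8 input reads. Lfng, which modifies Notch receptors, was reached in its gene body. The Notch count was 3 with H2AK119ub required in both replicates, 3 without H2AK119ub replicate 2 and 1 at a deposited p of at most 0.001.

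**Figure D5:**
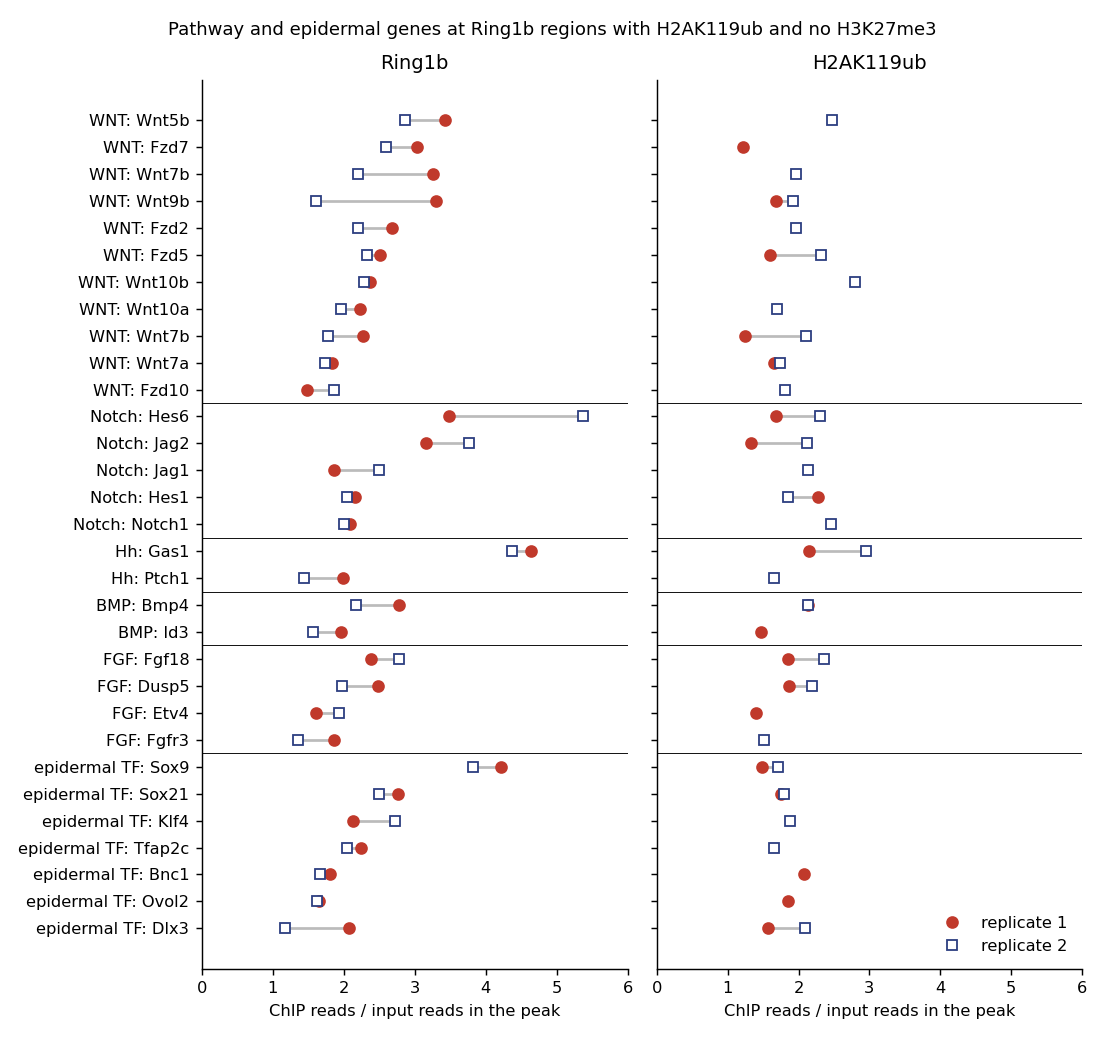
Ring1b (left) and H2AK119ub (right) ratio of ChIP to input reads at promoter regions of pathway and epidermal genes, with replicate 1 as red circles and replicate 2 as open squares; a missing symbol means no peak in that replicate, and Wnt7b has 2 regions. Hes6, Gas1 and Sox9 stand highest for Ring1b, and most H2AK119ub ratios lie between 1 and 3.

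Hedgehog genes gave 2 of 14, the coreceptor Gas1 and the receptor Ptch1, against 4 at regions with both marks and 0 at regions with neither. Ptch1, which is also a feedback target of the pathway, had Ring1b ratios of 1.99 and 1.44, against 4.64 and 4.38 at Gas1. The 250 bases before the start held 41 CpG at Ptch1 and 10 at Gas1. BMP and TGF-beta genes gave 2 of 57 (3.51%), against 10 and 7. These were Bmp4, a ligand of hair follicle patterning (2.77 and 2.17, with H2AK119ub of 2.13 in each replicate), and Id3, a target of BMP signals (1.96 and 1.57). FGF and EGF genes gave 4 of 46 (8.70%), against 10 and 4: the ligand Fgf18 (2.39 and 2.78), the receptor Fgfr3 (1.86 and 1.36), the ERK phosphatase Dusp5 (2.48 and 1.98) and the ETS factor Etv4 (1.61 and 1.93). Fgf18 lay 0.938 kb from an H3K27me3 peak.

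Transcription factors of epidermis and hair follicle gave 7 of 51 (13.7%, 95% interval 6.81 to 25.7), against 16 at regions with both marks and 10 at regions with neither. Tfap2c, which initiates epidermal fate, had Ring1b ratios of 2.25 and 2.05, and Klf4, a factor of barrier formation, had 2.13 and 2.73. Both had H2AK119ub in replicate 2 alone. Ovol2, a repressor that maintains epithelial identity, had 1.65 and 1.63, and Bnc1, a zinc finger factor of basal keratinocytes, had 1.81 and 1.67, with H2AK119ub in replicate 1 alone over 14 and 12 input reads. Dlx3, a homeobox factor of hair and differentiation, had 2.07 and 1.17. Sox21, a factor of the hair shaft, had 2.77 and 2.50. Sox9 stood apart within this group at 4.22 and 3.82, and a second Sox9 region less than 1 kb away had neither mark at 2.80 and 2.50. The count was 3 with H2AK119ub required in both replicates, 4 at a deposited p of at most 0.05 and 1 at 0.001.

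Immediate early genes gave 4 of 34 (11.8%), against 6 and 6, with Myc, a factor of growth, at 2.21 and 2.44, Klf2 at 1.84 and 1.66 and Ier5l at 2.36 and 2.68 beside Zfp36l2. Polycomb genes gave 3 of 32 (9.38%), against 4 and 2. These were Bmi1, the chromodomain subunit Cbx2 (2.31 and 2.64) and Phf19, an accessory subunit of PRC2 (2.82 and 3.11, the second over 9 input reads). All 3 had H2AK119ub in replicate 2 alone. Nuclear receptors gave 2 of 27, Nr2f2 and Nr2f6. The promoter region of Nr2f6 had the lowest mean of the listed promoter regions, at 1.65 and 1.31, while a second region in its gene body had 3.57 and 6.57, the last over 7 input reads. Nr2f2 had 2.26 and 1.96 and lay 0.634 kb from H3K27me3, and a second region of the gene carried both marks at 2.83 and 2.51. Semaphorin and ephrin genes gave 2 of 47, the receptors Plxnd1 (3.80 and 2.55) and Nrp1 (2.03 and 2.35), and cyclins and their kinases gave 1 of 23, the kinase activator Cdk5r1 (3.83 and 3.40).

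Developmental regulators of other lineages lay mostly at regions with both marks. Of 87 such genes 3 were named at Ring1b/H2AK119ub regions (3.45%), against 75 at regions with both marks and 0 at regions with neither. The 3 were the homeobox genes Irx2 (1.88 and 1.82), Irx3 (3.82 and 2.78) and Irx5 (2.35 and 1.76), and a further pair of regions lay near Irx4. Irx3 was 1.13 kb from H3K27me3. Of 39 Hox genes 0 were named here, against 29 at regions with both marks and 1 with neither. Merkel cell genes gave 0 of 12 against 8 and 0, circadian clock genes 0 of 21 against 5 and 4, and cell cycle inhibitors 0 of 7 against 4 and 0. Basal and suprabasal keratinocyte markers gave 0 of 35, against 0 and 1.

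Promoter rows placed the 45 listed genes at 46 regions. The mean Ring1b ratio of these promoter regions ran from 1.48 to 4.87 with a median of 2.33, and H2AK119ub was in both replicates at 21, in replicate 2 alone at 19 and in replicate 1 alone at 6.

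Not all regions were at promoters. By the authors' classes 41 were in gene bodies, 7 were distal, 3 were intergenic and 6 had different classes in the 2 replicates. These 57 regions had median Ring1b ratios of 2.50 and 2.57, against 2.52 and 2.27 at the 226 promoter regions. A RefSeq start lay inside at least 5 of the 57, by the same incomplete table of starts. Of the 283 regions, 33 fell within 50 kb of another and formed 15 groups of at most 3. Groups were not counted for the other classes, so whether this differs from Ring1b regions at large is not known. The 3-region groups lay at Wnt6 and Wnt10a, at Foxo6 and at Fam129c and Colgalt1. The regions were spread over all 19 autosomes, from 5.56% of the Ring1b regions on chromosome 3 (8 of 144) to 19.5% on chromosome 8 (29 of 149).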

How the data were processed

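Peak lists of 6 ChIP-seq samples were read (2 replicates each of Ring1b, H2AK119ub and H3K27me3). Groups and replicate numbers came from the titles. The submitters' processing notes name MACS2 2.1.0, SAMtools 0.1.19, Bowtie2 2.2.3, Bowtie 1.1.1, Trim Galore 0.4.1 and the build mm10, without their roles. Per the file headers, a deposited row gives the position of a peak, its maximum height (a coverage signal), counts of ChIP and input reads per strand, a p-value, a location class and gene names. Peaks were listed per replicate. The authors' counts were whole numbers with no stated normalization, and the deposited p-value has no stated test. Coordinates are printed as listed and treated as closed intervals, because the sources used here do not say whether they count from 0 or 1.

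Reads inside peaks numbered 444944 to 5212387 per list. Library totals were not used here. Input reads per kb of peak were 22.0 to 24.0 in 5 lists and 11.7 in H3K27me3 replicate 1. Among those 5 lists, 14 of 18 pairs of peaks whose ends matched within 20 bp had equal input counts, and where replicates share an input library the SD of a ratio leaves out input counting error. Wilson intervals (95%) cover counting error only.

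Peaks were merged and classed with Python 3.11.15, pandas 2.3.3 and numpy 2.4.6, and the merging was tested on simulated data. A ratio is the sum of ChIP reads over the sum of input reads in a region's peaks. A gene was counted at a region when promoter rows of both Ring1b lists named it. Of 243 names, 236 matched a current RefSeq symbol of GRCm38.p6 (the assembly of mm10), 6 matched a synonym and 1 did not match. Of 71 genes named by the rule or the lists, 38 had a RefSeq start inside their region. The genes named were the 15 regions of highest Ring1b ratio and 8 of highest H2AK119ub ratio (ranked by the mean log2 ratio over replicates, at least 20 input reads per replicate), the 5 longest, every region at a listed gene and up to 3 regions at each boundary of the rule. Regions, gene lists and rules were chosen with earlier results of these data known. No test was made. Alternatives covered overlap, H3K27me3 distance, H2AK119ub calls, deposited p, union lists, single replicates, chromosome X, input minimum, scaling, height, RefSeq starts and location class.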

Additional observations from a re-analysis of the deposited data

How the results depend on the processing

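Of 140 recomputed values over 10 results, 92 stayed close to the reported value, 46 moved by more than the spread allowed (1 SD between replicates, the interval of a share or a set fold for counts) and 2 changed sign. This tally is not a measure of robustness. Chromosome X added 0 regions to the set, so values of the set alone could not change there. The scaled ratios counted as moved are in another unit. With 50% of the region covered by H2AK119ub, 170 regions and 131 genes remained in the set, with a Ring1b ratio of 2.55, H2AK119ub in both replicates at 62.9%, and log2 Ring1b differences of -0.13 from regions with both marks and 0.16 from regions with neither. With H2AK119ub required in both replicates the same values were 140 regions, 112 genes, 2.57, -0.12 and 0.17. Both settings were applied to these regions alone and left the other classes as they were, so the differences set unlike groups side by side. At a deposited p of at most 0.05 they were 185 regions, 153 genes, 2.70, -0.14 and 0.038, with H2AK119ub at 2.01 and in both replicates at 57.8%. At 0.001 there were 53 regions and 42 genes, 73.6% at promoters, with Ring1b at 3.31, H2AK119ub at 2.39 and a length of 2293 bp. There the log2 difference from regions with neither mark turned to -0.036 and that of H2AK119ub from regions with both marks to 0.14. The union lists gave 445 regions, 393 genes, 1463 bp and 0.14 for the difference from neither mark. With at least 20 input reads the Ring1b ratio was 2.26 and the difference from both marks -0.31. Scaling by list totals gave ratios of 0.624 for Ring1b and 0.959 for H2AK119ub, with differences near -0.20 and 0.10. The totals cancel in a difference within a replicate, so only the added pseudocount of 1 could move these differences. Peak height, which gives differences only, gave -0.34. RefSeq starts within 2000 bp gave 68.2% at promoters (189 of 277, without chromosome 18). By the same definition the share was 66.9% for all Ring1b regions, 63.8% with both marks and 74.8% with neither mark. Leaving out single replicates gave 164 to 450 regions, 133 to 393 genes, promoter shares of 75.0% to 80.3%, Ring1b ratios of 2.24 to 2.58, H2AK119ub ratios of 1.86 to 1.97, lengths of 1257 to 2017 bp, H2AK119ub in both replicates at 42.4% to 51.0%, and log2 differences of -0.20 to -0.16 (Ring1b, both marks), 0.087 to 0.18 (Ring1b, neither) and -0.13 to -0.01 (H2AK119ub). The causes of these shifts were not tested. Low input counts limit the ratios of short regions, and 15.2% and 16.3% of the 283 regions had a deposited Ring1b p above 0.05 in replicates 1 and 2. These shares were near those of all Ring1b regions (16.9% and 14.8%). They were 7.57% and 7.10% with both marks and 31.3% and 26.7% with neither mark. Differences between classes were taken within each replicate. The classes come from the same libraries, so these differences are paired by library. Beyond these differences, no paired analysis was possible because 2 replicates allow no exact test under 0.05. No test between groups of samples was made.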

Other observations

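On chromosome X, which the set leaves out, 33 Ring1b regions were found in both replicates. Of these, 22 met both marks, 8 met H3K27me3 without H2AK119ub, 3 met neither mark and 0 met H2AK119ub without H3K27me3.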
